A study of Mus musculus with 24 samples.

Results

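The genes described here are the cyclins of the A, B, D and E families, the numbered cyclin-dependent kinases (Cdks) and the numbered Cdc (cell division cycle) genes of the mouse. They were chosen by symbol alone, which gave 51 of the 55291 genes in the count files, and each was followed through all 12 RNA libraries. Earlier results of these data were known when this choice was made. Both groups of embryos started as zygotes of 8-week-old B6D2F1 parents (the sample labels give the strain as BDF2), injected in the male pronucleus with antisense oligonucleotides (ASOs) at 20 µM. Control embryos received a scrambled ASO, and MERVL-KD embryos received a mixture of 3 ASOs against MERVL, an endogenous retrovirus whose RNA is abundant in the 2-cell embryo. Embryos were collected at the 2-cell stage (labelled 1.5 days post coitum) and at the 4-cell and 8-cell stages (both labelled 2.5 days). Each of the 6 groups has 2 libraries, and each library is total RNA from a pool of 30 embryos freed of the zona pellucida and picked by their number of cells under the microscope, so neither differences between embryos nor embryos that had stopped at an earlier stage were seen. An ASO lowers a transcript and leaves the loci in place.

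A cyclin switches on its Cdk partner, and each pair acts in its own part of the cell cycle: D cyclins with Cdk4 and Cdk6 in G1, E cyclins with Cdk2 at the start of DNA replication, A cyclins with Cdk2 and Cdk1 through S and G2, and B cyclins with Cdk1 at entry into mitosis. Cdc25 phosphatases remove the inhibitory phosphates that the Wee1 kinases put on Cdks, Cdc6, Cdc7 and Cdc45 act in the start of DNA replication, and Cdc20 with the anaphase-promoting complex (APC/C) ends mitosis by marking B cyclins for destruction. Several Cdks serve transcription (Cdk7, Cdk8, Cdk9, Cdk12, Cdk13 and Cdk19). Some Cdc genes have other work, such as Cdc42, a small GTPase of cell polarity, and Cdc73, a subunit of the Paf1 complex that travels with RNA polymerase II. Early cleavage begins on messages the egg has stored, and the embryo's own genome takes over mainly during the 2-cell stage.

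The libraries held 28167085 to 41482526 counts, of which the 51 genes took 4022 to 5229 CPM (CPM being counts scaled to a common library total). The retroviral internal sequence MERVL-int took 6.33 and 6.57% of the counts in the 2-cell control libraries and 0.157 and 0.143% in the MERVL-KD libraries, a 52.7-fold difference, followed by 46.2-fold at the 4-cell stage and 42.1-fold at the 8-cell stage. This checks the labels: every MERVL-KD library was below every control library of its stage. No member gene, and none of the pathway genes described at the end, spanned a sense-strand match to a MERVL ASO with up to 2 mismatches, against 176 of all genes (0.318%). Summed cumulus and granulosa cell markers were low in every library, at 20.2 to 31.7 CPM over 12 genes, and Ptx3 and Fshr never passed 4 counts. Of this list, 4 to 9 of the 12 genes had more than 3 counts in a given library. Amhr2 (479 to 898 counts) and Star (44 to 183 counts) did so in every library.

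Before any knockdown is considered, the control embryos set the levels. Levels of different genes are compared here as CPM per kilobase of annotated exon, scaled over all 12 libraries and given as mean ± SD (n = 2). At the 2-cell stage the most abundant members were Ccne1 (167 ± 10.0), Ccna2 (109.7 ± 7.34), Ccnb1 (92.0 ± 1.64) and Cdc20 (72.1 ± 5.11), so an E, an A and a B cyclin headed the list together with the activator of the APC/C. By the 8-cell stage the order was Ccnb1 (201 ± 3.93), Cdc20 (152 ± 6.45), Ccna2 (143 ± 4.51) and Ccne1 (123 ± 0.38), where Cdc20 and Ccna2 were no further apart than their SDs together. In 4-cell embryos Ccnb1 (162 ± 6.65) led, and Cdc20 (142 ± 8.29) and Ccne1 (139 ± 7.41) did not differ beyond their spread. Cdk1, the mitotic kinase, was at 30.7, 30.1 and 33.7 over the 3 stages. The scarcest G1 genes were Ccnd2, at 0.07, 0.09 and 0.24, and Cdk6, at 0.18, 0.11 and 0.19. These are RNA levels, and the exon length counts every annotated exon whether or not embryos use it. Exons of 26 of the 51 members share bases with another gene, 24 of them with a gene on the opposite strand, and whether the counting used the strand is not given in the sources used here. Overlaps of at least 5% of the exon length are given beside the results of the genes named. Smaller ones on the opposite strand, whose neighbours were not examined, included those of Ccnd2 with Gm43126 (3.95%) and 9330179D12Rik (3.91%), Cdc73 with B3galt2 (3.86%), Cdc20 with Elovl1 (2.84%) and Cdk18 with Gm29629 (1.81%). Others were those of Cdk19 with Cdk19os (4.58%), Cdc123 with Nudt5 (4.22%), Ccnd3 with Bysl (4.11%), Cdc5l with B230354K17Rik (3.33%) and Cdk6 with Gm17590 (2.63%). Cdc25b with Spef1 (2.47%), Cdk20 with 1700015C15Rik (0.72%), Cdk2 with Pmel (0.55%) and Cdc14a with Gm29151 (0.54%) had such overlaps too.

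**Figure D1:**
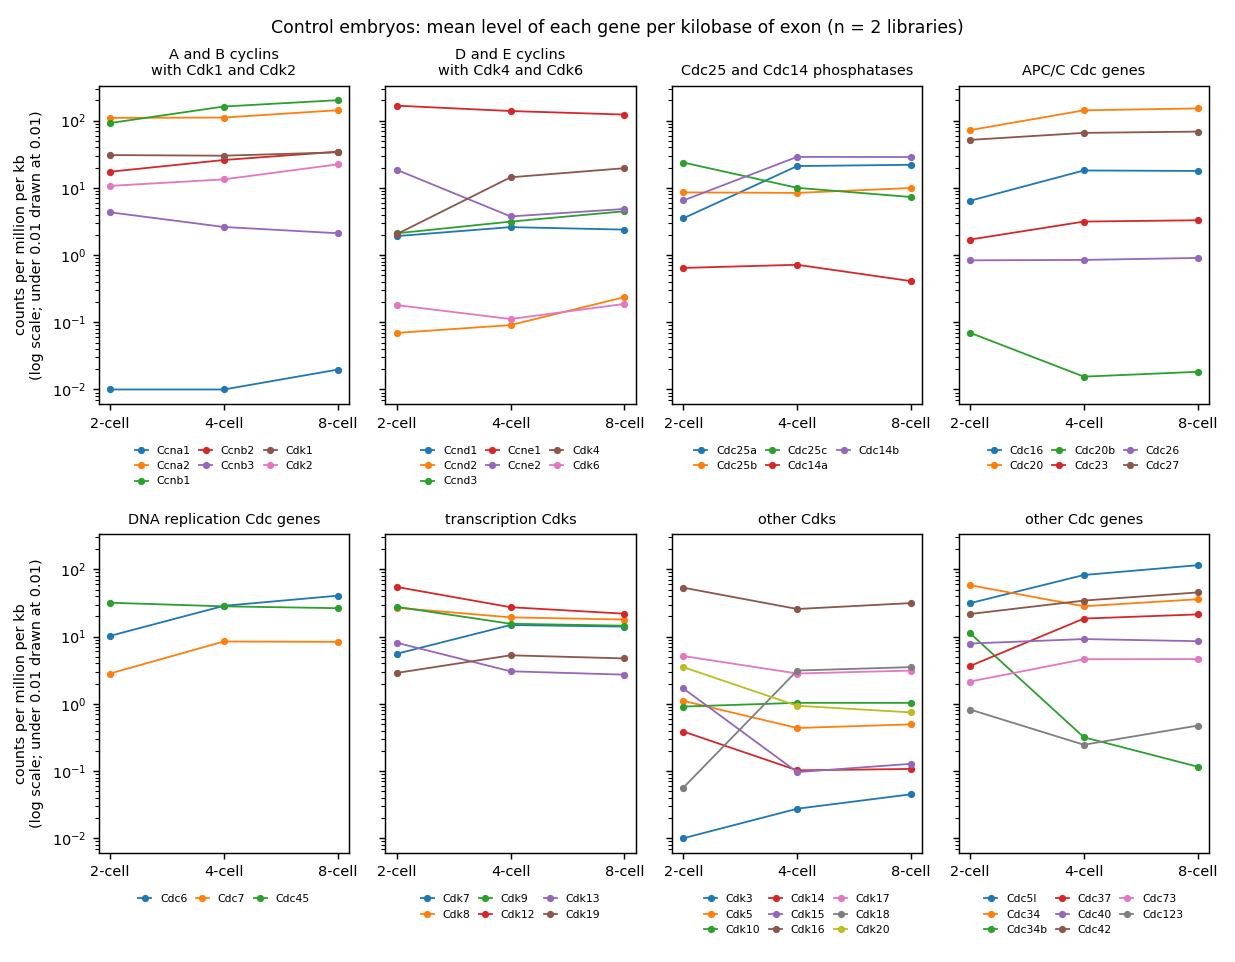
Control levels of member genes by cleavage stage (x axis), as CPM per kilobase of exon on a log axis, 1 panel per role group. Points are means of 2 control libraries, lines join the stages, and levels under 0.01 are drawn at 0.01; Ccnb1 and Cdc20 climb to 201 and 152 while Cdk12 goes from 54.8 to 21.9 and Cdc25c from 23.8 to 7.30.

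Some members were scarcely there at all. Ccna1, the germ-line A cyclin, had 0 counts in 11 of the 12 libraries and 2 counts in the other, Cdk3 and Cdc20b had at most 8 counts in any library, and these 3 were too low to be tested between control and MERVL-KD at any stage. Of the remaining 48 members, Cdk15 and Cdc34b were tested at the 2-cell and 4-cell stages only. All tests are those of edgeR's quasi-likelihood model with Benjamini-Hochberg adjustment over all genes and repeat families tested; a gene passed where the adjusted p was under 0.05, and was called where it also differed at least 2-fold.

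Between the 2-cell and the 4-cell stage most of the members changed in control embryos: 37 of 48 passed (20 up and 17 down) and 23 were called. Over the 24040 genes in that fit 55.1% passed (26.4% higher and 28.7% lower) and 45% were called. Repeat families are left out of this and all later background shares. The share of members called, 47.9%, was thus close to the background. The largest rises were those of Cdk18, a Pctaire kinase (log2 fold change 5.78 ± 0.35, SE), Cdk4 (2.81 ± 0.16), Cdc25a (2.58 ± 0.13), Cdc37 (2.35 ± 0.11), a co-chaperone that brings kinases to Hsp90, and Cdc14b (2.15 ± 0.11), a phosphatase. The largest falls were those of Cdc34b (-5.18 ± 0.61), Cdk15 (-4.14 ± 0.63), Ccne2 (-2.30 ± 0.17), Cdk14 (-1.92 ± 0.37) and Cdk20 (-1.91 ± 0.21). By role, 4 of 5 tested APC/C genes rose and none fell, whereas 4 of 6 transcription Cdks and 6 of 8 other Cdks fell. Ccne1, the sister of Ccne2, fell less in this step (-0.27 ± 0.09, adjusted p = 0.0176), and passed under 9 of 13 alternatives.

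From the 4-cell to the 8-cell stage the control embryos changed little. Both stages are labelled 2.5 days, so this contrast sets embryos with fewer cells against embryos with more cells at the same labelled age. None of the 48 members was called by edgeR, 17 had an unadjusted p under 0.05, and DESeq2 called 1 (Ccnd2, 1.43 on the log2 scale); the background of calls was 1.56%. At an adjusted p under 0.05 alone, 9 passed (18.8%) against 5.87% of all genes (3.19% higher and 2.68% lower). Cdk2 (0.74 ± 0.13), Ccnd3 (0.51 ± 0.15), Cdc6 (0.50 ± 0.12), Cdc5l (0.48 ± 0.11), Cdc42 (0.40 ± 0.12), Ccna2 (0.36 ± 0.09) and Ccnb1 (0.31 ± 0.09) were higher at the 8-cell stage, and Cdc14a (-0.80 ± 0.24) and Cdc25c (-0.45 ± 0.13) lower. Cdk2 alone passed under all 13 alternatives. The others passed under 6 to 10 of them, with highest adjusted p of 0.163 to 0.565, and each was lost without at least 2 of the 4 control libraries in turn: Ccnb1, Ccnd3, Cdc14a and Cdc42 without any one of them, Ccna2 and Cdc5l without either 4-cell library or 8-cell replicate 2, Cdc6 without replicate 1 of either stage, and Cdc25c without 4-cell replicate 2 or either 8-cell library. The split also depended on scaling: with library size alone 1 member was higher and 5 were lower. Cdc5l is named because it passed, not by the rule for named genes.

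The same steps were tested within MERVL-KD embryos. From the 2-cell to the 4-cell stage 39 of their 48 members passed and 23 were called (47.9%), where 54.4% of all genes passed and 44.1% were called. From there to the 8-cell stage 2 passed (4.17%), Cdc73 up by 0.52 ± 0.12 and Ccne2 down (-0.96 ± 0.17), and edgeR called none, where 4.68% of all passed and 1.64% were called. The rise of Cdc73 passed under 8 of 13 alternatives, with adjusted p up to 0.083, and not without either 4-cell library or 8-cell replicate 2; the fall of Ccne2 passed under 12 of 13, and was -0.65 (adjusted p = 0.0551) without 8-cell replicate 2. Whether the effect of MERVL-KD itself changed between stages was tested directly: 7 members passed from the 2-cell to the 4-cell stage and 2 were called, against 4.16% and 2.3% of all; 1 passed and was called between the later stages, against 0.624% and 0.42%; and 8 passed from the 2-cell to the 8-cell stage and 4 were called, against 4.03% and 2.34%. Each is given below, beside its gene or among the results flagged near the end, where the alternatives under which it did not pass are also given.

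A minority of these genes differed between MERVL-KD and control embryos, most of them by less than 2-fold. Of the 51 members 19 passed at one stage or more and 32 at none; 14 passed at a single stage, 4 at 2 stages, and Cdk1 alone at all 3. Only 5 were called anywhere, namely Cdc73 and Cdk18 at the 2-cell stage, Ccnd2 and Ccne2 at the 4-cell stage and Cdc14a in 8-cell embryos. At the 2-cell stage 10 of 48 passed (20.8%), 1 higher and 9 lower in MERVL-KD, where 14.1% of all 20604 genes passed (6.7% higher and 7.39% lower). There 2 members were called (4.17%), where the background was 6.61%. In 4-cell embryos 9 of 48 passed (18.8%), 5 higher and 4 lower, against 10.8% of all (4.92% and 5.84%), and 2 were called against 4.54%. At the 8-cell stage 6 of 46 passed (13.0%), 2 higher and 4 lower, against 5.06% of all (1.5% and 3.56%), and 1 was called against 1.7%. The members' median log2 fold change was -0.15, 0.02 and -0.10 at the 3 stages, and that of all genes 0.01, 0.03 and 0.01.

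The direction of the 2-cell counts rested on how libraries were scaled. The default scaling (TMM, which sets the bulk of genes to no change) was used throughout. Dividing by library size alone, which counts MERVL-int in the total, moved the median of all genes to 0.30, 0.09 and 0.13 at the successive stages, and the members then passed as 10 higher and 4 lower, 5 higher and 3 lower, and 6 higher and 2 lower. The 4 lower at the 2-cell stage under that scaling were Cdc73, Cdc20, Cdk12 and Cdc25c. The part of MERVL-int in the moved medians was not tested. All changes below are therefore relative to the bulk of genes, and since the samples are bulk RNA, fewer cells making a transcript and less of it per cell cannot be told apart.

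**Figure D2:**
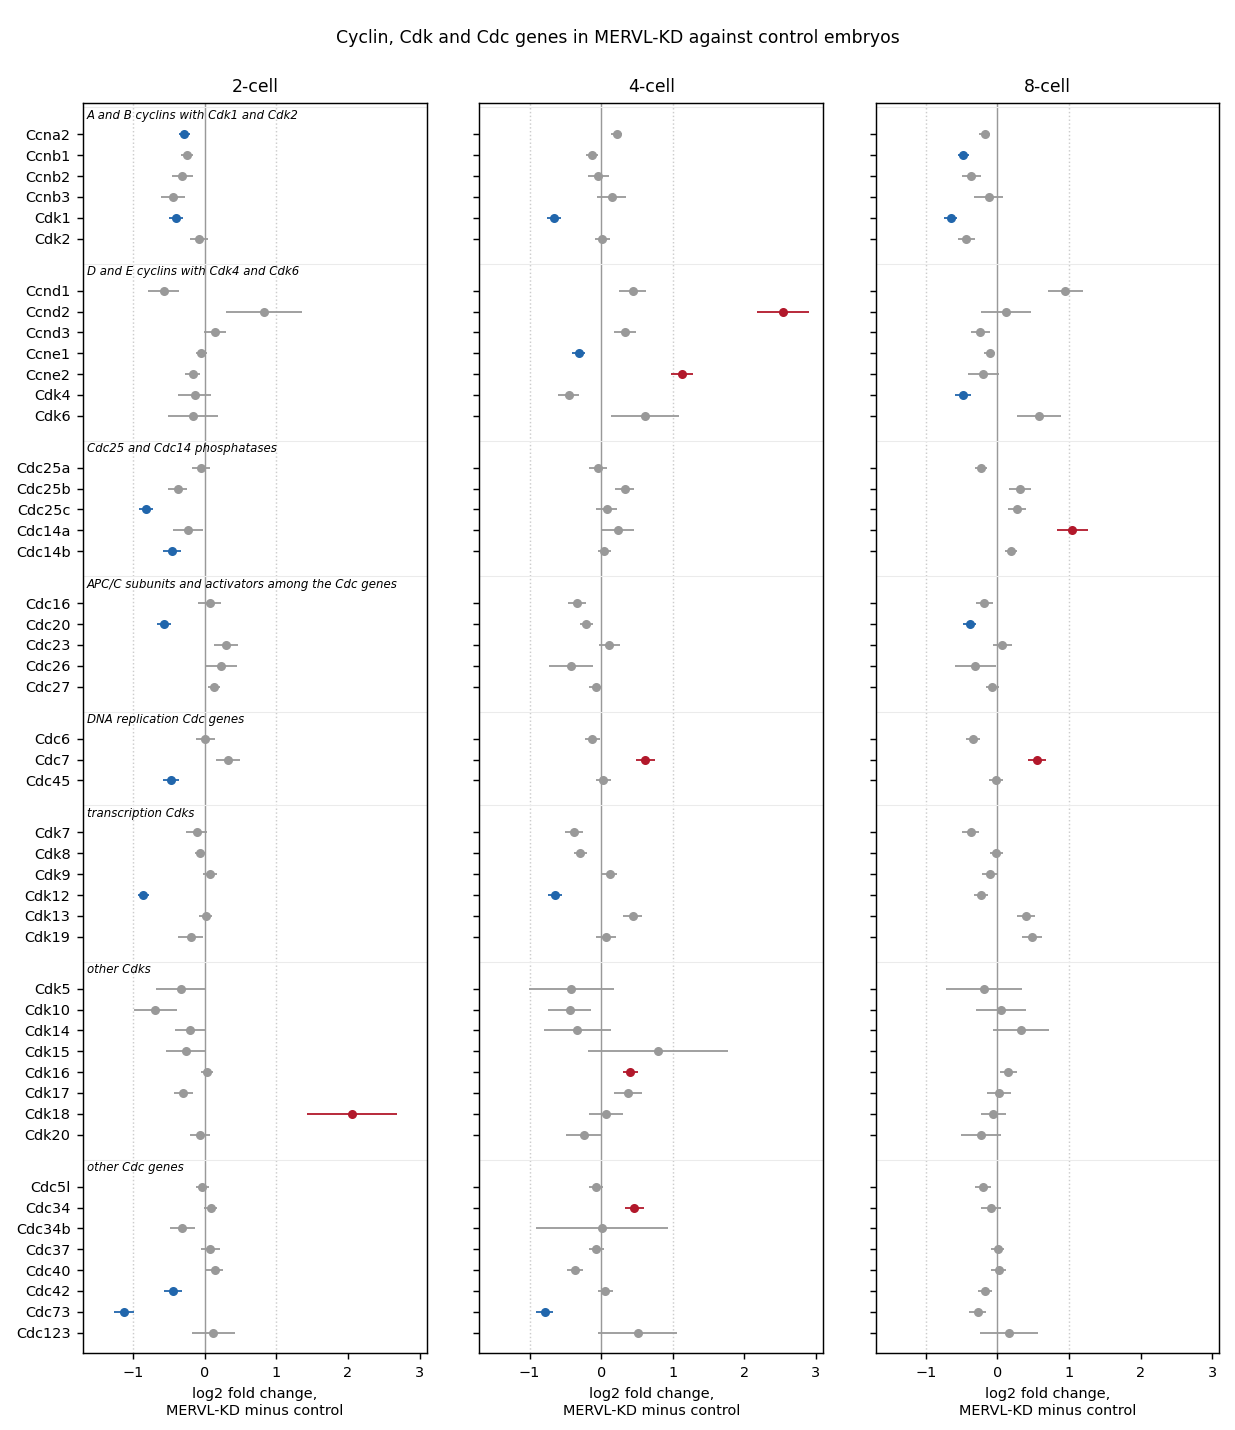
log2 fold change of MERVL-KD against control (x axis) for the tested member genes (y axis, by role group) at the 2-cell, 4-cell and 8-cell stages. Points are edgeR estimates, bars are standard errors, and coloured points (blue lower, red higher) passed at an adjusted p under 0.05; most points lie within 1 log2 unit of 0, and Ccnd2 (2.54, 4-cell) and Cdk18 (2.05, 2-cell) lie farthest to the right.

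Of the mitotic kinase and its cyclins, the kinase was lower throughout. Cdk1, on chromosome 10 (69335146 to 69352938, minus strand, GRCm38), fell at every stage. Its CPM values, scaled within each stage, were 145 and 159 in the 2-cell control libraries and 107 and 122 in the MERVL-KD libraries (log2 fold change -0.41 ± 0.10, adjusted p = 0.00998). In 4-cell embryos they were 155 and 155 against 104 and 92.1 (-0.66 ± 0.10, adjusted p = 0.00183), and in 8-cell embryos 151 and 157 against 95.7 and 99.8 (-0.66 ± 0.09, adjusted p = 0.00154). No control library overlapped a MERVL-KD library at any stage. Scaled over all 12 libraries, the controls were at 143 and 160, 148 and 149, and 163 and 170 at the successive stages. The 2-cell fall was the least firm: its adjusted p ran from 0.000348 to 0.401 over 13 alternatives and was 0.0525 without control replicate 2, 0.0511 without MERVL-KD replicate 1 and 0.401 with library size alone. The later falls passed under all 13.

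The cyclin partners of Cdk1 moved less evenly. Ccnb1 was at 389 and 390 CPM in the 2-cell controls against 351 and 303 (adjusted p = 0.0697), and at 694 and 732 against 640 and 668 at the 4-cell stage (adjusted p = 0.403). At the 8-cell stage it fell, from 777 and 794 to 551 and 579 (-0.48 ± 0.07, adjusted p = 0.00351), and the rise from the 4-cell to the 8-cell stage that passed in control (0.31, under 7 of 13 alternatives) was -0.04 ± 0.09 in MERVL-KD, although the difference between these changes did not pass (-0.35 ± 0.13, adjusted p = 0.232). The files also hold a Ccnb1 pseudogene, to which reads of this gene could be lost. Ccna2 fell at the 2-cell stage, from 433 and 465 to 372 and 365 (-0.29 ± 0.08, adjusted p = 0.0254), but this direction was lost with library size alone, which gave 0.0036, and the adjusted p was 0.176 without control replicate 2. Exons of Ccna2 overlap those of Exosc9 on the opposite strand over 12.5% of their length, and Exosc9 passed at no stage. In 4-cell embryos Ccna2 stood at 478 and 468 against 540 and 556 (adjusted p = 0.13), and in 8-cell embryos at 529 and 550 against 489 and 465 (adjusted p = 0.221). The difference between its 2-cell and 4-cell effects passed (0.58 ± 0.12, adjusted p = 0.0081). Ccnb2, Ccnb3 and Cdk2 passed at no stage; Cdk2 came nearest, at 127 and 130 against 83.4 and 107 at the 8-cell stage (-0.44 ± 0.12, adjusted p = 0.0553).

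The promoter windows of Cdk1, Cdc20 and Ccnb1 are shown because these mitotic genes fell in MERVL-KD embryos. Promoters of late cell-cycle genes are known for CCAAT boxes, bound by NF-Y, and for the CHR element used by MuvB complexes, and E2F sites mark many genes of the G1 to S step. The windows run from 250 bases before the RefSeq start to 50 after it, on GRCm38.p6, and are written 5′ to 3′ along the gene with the motif matches in capitals (CCAAT or its complement ATTGG; CHR as TTTGAA or TTCGAA or their complements; E2F as TTTGGCG or TTTCGCG or their complements). The first is Cdk1 (chr10:69352863-69353162, minus strand), the second Cdc20 (chr4:118437294-118437593, minus strand) and the third Ccnb1 (chr13:100786437-100786736, minus strand).
Cdk1: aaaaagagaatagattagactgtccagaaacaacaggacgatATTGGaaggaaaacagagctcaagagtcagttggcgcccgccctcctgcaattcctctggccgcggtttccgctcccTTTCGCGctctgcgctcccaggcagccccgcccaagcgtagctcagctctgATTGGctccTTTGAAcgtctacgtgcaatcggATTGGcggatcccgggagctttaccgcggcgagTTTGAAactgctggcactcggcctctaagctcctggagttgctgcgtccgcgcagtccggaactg
Cdc20: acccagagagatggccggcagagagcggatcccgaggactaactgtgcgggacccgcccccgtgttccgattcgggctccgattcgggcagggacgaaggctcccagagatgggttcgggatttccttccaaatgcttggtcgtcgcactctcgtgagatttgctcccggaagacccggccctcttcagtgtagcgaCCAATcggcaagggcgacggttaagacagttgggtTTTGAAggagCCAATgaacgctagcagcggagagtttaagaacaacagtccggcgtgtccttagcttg
Ccnb1: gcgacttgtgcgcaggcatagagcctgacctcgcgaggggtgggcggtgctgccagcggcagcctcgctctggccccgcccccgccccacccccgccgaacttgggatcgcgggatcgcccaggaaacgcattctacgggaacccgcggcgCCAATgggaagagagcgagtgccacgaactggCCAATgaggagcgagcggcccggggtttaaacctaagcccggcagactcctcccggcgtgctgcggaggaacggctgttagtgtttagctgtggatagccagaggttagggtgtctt
Counted from the start, Cdk1 holds CCAAT at -208, -80 and -48, an E2F match at -131 and CHR at -71 and -15; Cdc20 holds CCAAT at -53 and -8 and CHR at -18; Ccnb1 holds CCAAT at -99 and -67. Of 46 windows of the 40 members found in the RefSeq table, 19 held CCAAT (41.3%, against 37.4% of 32851 mouse windows), 11 held CHR (23.9% against 19.2%) and 2, those of Cdk1 and Cdc25a, held E2F (4.35% against 2.37%). Both strands were searched. The motifs were not confined to members that fell. Ccnb2, which passed at no stage, held 3 CCAAT and 2 CHR matches. Of members that were higher in MERVL-KD, Cdk16 held 3 CCAAT and 1 CHR in a window, and windows of Cdc7 and Cdc14a held CHR. Ccnb1 itself held 0 CHR. The shares among members are a description and were not tested, nor was any link between the motifs and the changes.

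Among the APC/C genes with a Cdc symbol, only the activator Cdc20 passed. Other APC/C genes are given with the pathway genes below, and of these the subunit Anapc10 fell at every stage. Cdc20 fell at the 2-cell stage from 130 and 140 to 86.7 and 95.3 CPM (-0.57 ± 0.09, adjusted p = 0.000706). It was at 289 and 265 against 242 and 237 at the 4-cell stage (adjusted p = 0.176), and fell at the 8-cell stage from 255 and 270 to 192 and 209 (-0.39 ± 0.09, adjusted p = 0.0241). All MERVL-KD libraries lay below all control libraries at each stage, and the 2-cell fall passed under all 13 alternatives, whereas the 8-cell fall ran from 0.000118 to 0.155 and did not pass without either control library (adjusted p = 0.0645 and 0.155) or with library size alone (0.1). The structural subunits Cdc16, Cdc23, Cdc26 and Cdc27 passed at no stage. Exons of Cdc23 overlap those of Kif20a on the opposite strand, over 13.4% of their length, and Kif20a itself fell in 2-cell (-0.42, adjusted p = 0.0057) and 8-cell embryos (-0.38, adjusted p = 0.0311).

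Among the phosphatases, the effect on Cdc25c depended on stage. Cdc25c, which activates Cdk1 at mitotic entry, fell at the 2-cell stage from 113 and 121 to 70.6 and 62.0 CPM (-0.82 ± 0.10, adjusted p = 4.92e-05). It was at 43.9 and 58.7 against 55.5 and 52.8 at the 4-cell stage and at 32.1 and 34.4 against 40.6 and 39.5 at the 8-cell stage (adjusted p = 0.263). The groups were apart at the 2-cell stage and overlapped at the 4-cell stage, and the effect at the 2-cell stage differed from that at the 4-cell stage (0.98 ± 0.19, adjusted p = 0.0037) and from that at the 8-cell stage (1.17 ± 0.19, adjusted p = 0.00082). Cdc25b passed at no single stage, with 34.4 and 29.6 against 24.4 and 24.7 at the 2-cell stage, 31.9 and 33.4 against 40.0 and 42.3 at the 4-cell stage and 30.2 and 38.3 against 46.6 and 38.8 at the 8-cell stage, yet its effect changed from the 2-cell to the 4-cell stage (0.79 ± 0.21, adjusted p = 0.034). Exons of Cdc25c share 12.7% of their length with Gm3550, a gene with 0 to 25 counts. Cdc25a, at 27.0 to 29.3 CPM in the 2-cell libraries, passed nowhere.

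Of the Cdc14 phosphatases, which oppose Cdk phosphorylation, one fell early and the other rose late. Cdc14b fell at the 2-cell stage from 56.6 and 62.9 to 47.4 and 39.5 CPM (-0.46 ± 0.12, adjusted p = 0.018) and was at 249 and 238 against 270 and 288 at the 8-cell stage (adjusted p = 0.217); the 2 effects differed (0.73 ± 0.15, adjusted p = 0.0058). The 2-cell fall of Cdc14b did not pass without control replicate 2 (adjusted p = 0.0772), without MERVL-KD replicate 2 (0.09) or with library size alone (0.334). Cdc14a was called at the 8-cell stage, where 4.28 and 5.16 stood against 9.62 and 9.91, a rise of 1.05 ± 0.22 on the log2 scale (adjusted p = 0.0197; 0.0941 without control replicate 1). At the 2-cell stage Cdc14a was at 7.99 and 8.08 against 6.27 and 7.39, and in 4-cell embryos at 8.45 and 10.2 against 9.54 and 12.4. The 8-cell effect differed from the 2-cell effect (1.36 ± 0.33, adjusted p = 0.021), whereas its change from the 4-cell to the 8-cell stage did not pass (0.80 ± 0.33, adjusted p = 0.321).

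Among the G1 genes, Ccne2 and Ccnd2 rose at the 4-cell stage. Ccne2, an E cyclin on chromosome 4 (11191351 to 11204779, plus strand), was at 66.8 and 63.3 CPM in the 2-cell controls and 57.3 and 58.4 in the MERVL-KD libraries (adjusted p = 0.322). In 4-cell embryos the controls had dropped to 14.3 and 13.1 and the MERVL-KD libraries stood at 29.0 and 30.9, a 2.19-fold excess (1.13 ± 0.16, adjusted p = 0.000984). By the 8-cell stage the levels were 16.1 and 15.2 against 16.7 and 10.7 (adjusted p = 0.691). The excess was particular to the 4-cell stage, since both changes of the effect passed, 1.38 ± 0.23 from the 2-cell to the 4-cell stage (adjusted p = 0.0013) and -1.33 ± 0.24 from the 4-cell to the 8-cell stage (adjusted p = 0.011). In MERVL-KD embryos Ccne2 differed by -0.93 ± 0.16 between the 2-cell and the 4-cell stage. Between the 4-cell and 8-cell stages, which share a labelled age, it differed by -0.96 ± 0.17 (-0.65, which did not pass, without 8-cell replicate 2). In control a fall of 2.30 on the log2 scale lay between the 2-cell and the 4-cell stage. Exons of Ccne2 overlap those of Ints8 on the opposite strand over 17.4% of their length, and Ints8 passed at no stage (-0.02, 0.07 and -0.09). Ccne1 went the other way at the 4-cell stage, from 371 and 399 to 296 and 323 (-0.32 ± 0.09, adjusted p = 0.0485); that fall passed under 6 of 13 alternatives, with adjusted p from 0.0128 to 0.338, and not without control replicate 1 (0.111), control replicate 2 (0.338) or MERVL-KD replicate 1 (0.115).

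Ccnd2, the D cyclin on chromosome 6 (127125162 to 127152193, minus strand), was scarce in control embryos. At the 4-cell stage it had 32 and 23 counts in the control libraries and 191 and 162 in the MERVL-KD libraries, which is 0.949 and 0.832 against 5.50 and 4.95 CPM (2.54 ± 0.36, adjusted p = 0.00111). In 2-cell embryos the values were 0.712 and 0.601 against 1.47 and 0.838, and in 8-cell embryos 2.02 and 2.10 against 2.34 and 2.14. The MERVL-KD libraries of the 4-cell stage were above all the others. In the default tests, however, no change of the effect on Ccnd2 between stages passed. Ccnd1 passed at no stage, with 10.4 and 7.75 against 5.79 and 6.34 at the 2-cell stage (adjusted p = 0.101), 11.1 and 14.5 against 16.6 and 18.0 at the 4-cell stage (0.19) and 12.1 and 8.78 against 24.9 and 15.3 at the 8-cell stage (0.0512). The difference between its 8-cell and 2-cell effects passed (1.60 ± 0.34, adjusted p = 0.0088). Exons of Ccnd1 overlap those of LTO1 on the opposite strand over 23.4% of their length, and LTO1 passed at no stage.

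Of the G1 kinases, Cdk4 fell at the 8-cell stage, from 58.2 and 59.6 to 41.0 and 43.4 CPM (-0.48 ± 0.11, adjusted p = 0.0314). At the 4-cell stage it was at 46.3 and 50.9 against 31.6 and 39.5 (adjusted p = 0.0723). The 8-cell adjusted p ran from 0.00479 to 0.136 over 13 alternatives and missed the threshold without either control library (0.106 and 0.136), with library size alone (0.108) and with all 12 libraries in one fit (0.0609), and 19.7% of the exon length of Cdk4 overlaps Tspan31, which passed at no stage. Cdk6 and Ccnd3 passed at no stage.

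**Figure D3:**
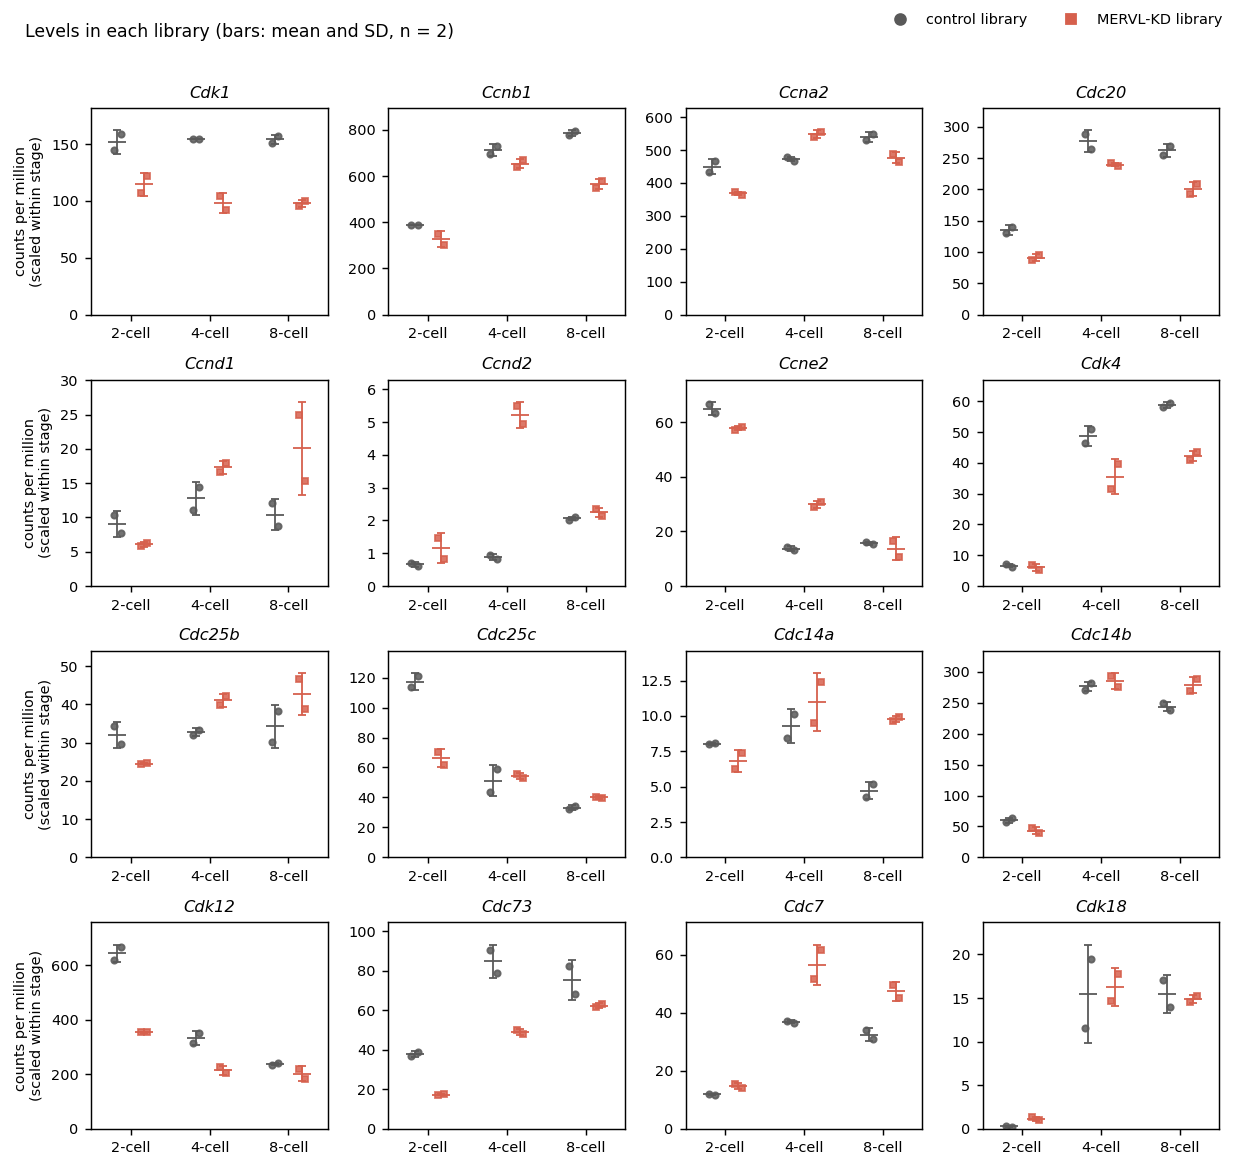
Levels in each library as CPM scaled within each stage (y axis, from 0) for 16 member genes, by cleavage stage (x axis). Circles are control libraries, squares MERVL-KD libraries, bars mean and SD (n = 2); the MERVL-KD libraries lie below control at every stage for Cdk1, and above it at the 4-cell stage for Ccne2 and Ccnd2.

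The replication genes did not move together. Cdc45, a part of the replicative helicase, fell at the 2-cell stage from 98.2 and 126 to 80.5 and 80.4 CPM (-0.48 ± 0.11, adjusted p = 0.00996; 1.05e-05 to 0.222 over 13 alternatives, with 0.15 without control replicate 2 and 0.222 with library size alone), and passed at neither later stage. Its exons overlap those of Ufd1 over 5.96% of their length. Ufd1 itself fell at the 2-cell stage (-1.46, adjusted p = 0.000348), and its part in the value of Cdc45 was not tested. Cdc7, the kinase that fires replication origins, rose instead. It was at 37.2 and 36.6 against 51.6 and 61.4 at the 4-cell stage (0.61 ± 0.13, adjusted p = 0.0126) and at 33.9 and 30.8 against 49.6 and 45.0 at the 8-cell stage (0.55 ± 0.13, adjusted p = 0.0303; 0.000871 to 0.145 over 13 alternatives, with 0.0536 without control replicate 1 and 0.145 without control replicate 2). Cdc6, which loads the helicase, passed at no stage; its 8-cell values were 206 and 187 against 145 and 165 (-0.34 ± 0.10, adjusted p = 0.0687).

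Members that work in transcription gave the largest 2-cell falls. Cdc73, on chromosome 1 (143598800 to 143702893, minus strand), fell 2.19-fold at the 2-cell stage, from 36.7 and 39.0 to 17.1 and 17.6 CPM (-1.13 ± 0.13, adjusted p = 3.6e-05). It fell again at the 4-cell stage, from 90.7 and 78.5 to 49.9 and 47.9 (-0.79 ± 0.12, adjusted p = 0.0016), and was at 82.6 and 68.2 against 61.4 and 63.2 at the 8-cell stage (adjusted p = 0.218). The MERVL-KD libraries were the lower ones at every stage, and the effect at the 8-cell stage differed from that at the 2-cell stage (0.93 ± 0.18, adjusted p = 0.0038). Cdk12, which phosphorylates the tail of RNA polymerase II during elongation, also fell at the 2-cell and 4-cell stages. Its values were 621 and 667 against 357 and 354 at the 2-cell stage (-0.86 ± 0.08, adjusted p = 2.36e-06), 316 and 353 against 226 and 203 at the 4-cell stage (-0.64 ± 0.10, adjusted p = 0.00178) and 235 and 241 against 221 and 184 at the 8-cell stage (adjusted p = 0.216). The control level of Cdk12 came down toward the MERVL-KD level with stage, and the difference between the 8-cell and 2-cell effects passed (0.70 ± 0.14, adjusted p = 0.0066). The 2-cell and 4-cell falls of Cdc73 and Cdk12 passed under all 13 alternatives. The other 5 transcription Cdks, Cdk7, Cdk8, Cdk9, Cdk13 and Cdk19, passed at no stage.

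Cdk18 was the 1 member that rose at the 2-cell stage, from few counts. On chromosome 1 (132112237 to 132139684, minus strand), it had 10 and 8 counts in the control libraries and 51 and 32 in the MERVL-KD libraries, or 0.323 and 0.218 against 1.29 and 0.957 CPM (2.05 ± 0.63, adjusted p = 0.0391). In 4-cell embryos, once the gene was on, the values were 11.5 and 19.5 against 14.7 and 17.8, and in 8-cell embryos 17 and 14.0 against 14.6 and 15.2. The later groups overlapped, and the effect changed by -1.92 ± 0.47 from the 2-cell to the 4-cell stage (adjusted p = 0.023). At so few counts the 2-cell call was fragile: over 12 alternatives the adjusted p ran from 0.00241 to 0.241, and it was 0.0721 with DESeq2 and 0.0515, 0.15 and 0.241 without control replicate 1, control replicate 2 and MERVL-KD replicate 1, and with a minimum of 10 counts in every library the gene was not tested. The promoter windows of the 2 members called at the 2-cell stage are set below; that of Cdc73 (chr1:143702844-143703143, minus strand) held none of the 3 motifs, and that of Cdk18 (chr1:132139636-132139935, minus strand) held CCAAT, as its complement, at -86.
Cdc73: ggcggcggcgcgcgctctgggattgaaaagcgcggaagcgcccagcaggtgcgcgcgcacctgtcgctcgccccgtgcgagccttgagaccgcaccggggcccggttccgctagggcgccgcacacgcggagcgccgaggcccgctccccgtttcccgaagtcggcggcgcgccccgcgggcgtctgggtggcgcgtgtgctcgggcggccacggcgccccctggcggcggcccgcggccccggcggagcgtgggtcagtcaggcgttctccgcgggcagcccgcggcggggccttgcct
Cdk18: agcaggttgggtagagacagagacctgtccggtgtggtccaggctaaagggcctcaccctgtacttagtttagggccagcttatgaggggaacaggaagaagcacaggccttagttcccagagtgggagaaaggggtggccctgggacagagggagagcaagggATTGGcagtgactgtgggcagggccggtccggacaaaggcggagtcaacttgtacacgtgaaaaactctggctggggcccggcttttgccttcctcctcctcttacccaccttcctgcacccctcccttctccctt

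The remaining members that passed did so at a single stage, and Cdk16 and Cdc34 are named for that reason, after their values were seen. Cdc42 fell at the 2-cell stage from 67.8 and 61.2 to 41.6 and 52.8 CPM (-0.45 ± 0.13, adjusted p = 0.0254; 0.00017 to 0.375 over 13 alternatives, with 0.0642 without control replicate 1, 0.186 without MERVL-KD replicate 1 and 0.375 with library size alone). Cdk16, a Pctaire kinase, rose at the 4-cell stage from 117 and 118 to 169 and 143 (0.41 ± 0.11, adjusted p = 0.0317; 0.00139 to 0.152 over 13 alternatives, with 0.152, 0.136 and 0.111 without control replicate 1, control replicate 2 and MERVL-KD replicate 1). Cdc34, the ubiquitin-conjugating enzyme of the SCF ligases, rose at the 4-cell stage from 49.8 and 42.8 to 59.1 and 68.8 (0.47 ± 0.13, adjusted p = 0.0446; 0.00943 to 0.332 over 13 alternatives, with 0.332 without control replicate 2 and 0.131 without MERVL-KD replicate 2). Cdc5l, Cdc37, Cdc40, Cdc123 and Cdc34b passed at no stage.

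Stage markers moved beside the 2-cell results. Summed over a list of 2-cell embryo genes, the 2-cell control libraries held 649 to 730 CPM and the MERVL-KD libraries 473 to 575, and 6 of the 9 genes tested fell. Summed oocyte genes were 1136 to 1286 against 1003 to 1106, and 3 of 10 fell (Bmp15 by 0.81, Nlrp5 by 0.35 and Oosp1 by 0.32 on the log2 scale). At the 4-cell stage the order was the reverse, at 172 to 181 in control against 205 to 206 in MERVL-KD. In 8-cell embryos the summed oocyte genes were 134 to 149 against 137 to 163, where the groups overlapped. Summed 8-cell embryo genes were 183 to 197 against 224 to 252 at the 2-cell stage, 666 to 679 against 615 to 641 at the 4-cell stage and 790 to 832 against 708 to 720 at the 8-cell stage. The summed 2-cell genes had dropped to 38.3 to 43.2 against 34.3 to 49.8 at the 4-cell stage, where the groups overlapped, and to 23.2 to 27.2 against 28.2 to 29.9 at the 8-cell stage. Summed cumulus and granulosa markers were 20.2 and 22.0 in the 2-cell controls against 27.6 and 24.3, and Star, 1 of 5 of that list tested, was called higher (59 and 78 counts against 183 and 142; 1.14 ± 0.30, adjusted p = 0.0169). Under library size alone the median log2 fold change of all genes at the 2-cell stage was 0.30, and the 2-cell sums carry that shift. In the default tests the 2-cell median was -0.64 for the 2-cell embryo genes and -0.28 for the oocyte genes. It was 0.10 for the 8-cell embryo genes, of which 1 of 10 passed, and -0.10 for the cumulus and granulosa markers. At the 4-cell stage the default median was 0.38 for the oocyte genes, with 7 of 10 higher in MERVL-KD and 0 passed. For the 2-cell embryo genes it was 0.26 there, with 6 of 9 higher and 1 passed, which was lower. The part of these shifts in the member genes' results was not tested.

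Other genes of the pathway, taken from lists of cell-cycle regulators, were counted in the same tests, against the backgrounds of 14.1, 10.8 and 5.06% given above. Earlier results of these data were known when the lists were chosen, so these counts are a description and not a test of the lists. Among 8 CDK inhibitors 3 rose and 1 fell at the 2-cell stage, 3 rose at the 4-cell stage and 1 rose at the 8-cell stage. Among 10 genes of mitotic kinases and the spindle checkpoint 6, 3 and 2 fell at the 3 stages and none rose, and of 5 Wee1 kinases and Cks subunits 4 fell in 2-cell embryos and 1 in 4-cell embryos. Of 13 other APC/C genes 4 fell at the 2-cell stage, 3 fell and 1 rose at the 4-cell stage and 2 fell at the 8-cell stage. Rb and E2f genes (1 up and 1 down of 12 tested at the 2-cell stage, 1 down at each later stage), SCF ligase genes (3, 1 and 0 down of 6) and other cyclins (2 up and 1 down, 1 up and 2 down, and 1 up of 15) made up the rest. With library size alone the 2-cell counts became 3 up and 1 down for inhibitors, 1 and 3 for mitotic genes, 1 and 2 for Wee1 and Cks genes, 5 and 3 for APC/C genes, 6 and 0 for Rb and E2f genes, 0 and 1 for SCF genes and 2 and 0 for other cyclins.

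Among the inhibitors, Cdkn1a (p21) rose from 8.41 and 11.6 to 31.0 and 27.5 CPM at the 2-cell stage (1.55 ± 0.17, adjusted p = 2.2e-05) and from 37.8 and 44.6 to 107 and 116 at the 4-cell stage (1.44 ± 0.12, adjusted p = 2.1e-05). At the 8-cell stage Cdkn1a was at 41.2 and 50.2 against 66.9 and 58.0 (adjusted p = 0.0725). Cdkn1c (p57) rose from 4.56 and 6.88 to 31.8 and 30.3 at the 2-cell stage (2.43 ± 0.19) and from 1.36 and 0.723 to 12.1 and 9.22 at the 4-cell stage (3.33 ± 0.35). Cdkn2b (p15), an inhibitor of Cdk4 and Cdk6, rose at all 3 stages from a low level, by 2.45 ± 0.40, 2.83 ± 0.51 and 3.00 ± 0.66 on the log2 scale; its 8-cell controls had 6 and 4 counts, and that call was lost without control replicate 2 (adjusted p = 0.0583) or MERVL-KD replicate 1 (0.0794). Cdkn3, a phosphatase of Cdks, fell at the 2-cell stage, from 8.57 and 6.96 to 2.79 and 4.67 (-1.06 ± 0.27, adjusted p = 0.0157; 0.123 with all 12 libraries in one fit, 0.0594 without control replicate 1 and 0.0771 without MERVL-KD replicate 1). Ccng1, an atypical cyclin known as a p53 target, as Cdkn1a also is, rose at all 3 stages by 1.93 ± 0.11, 3.01 ± 0.22 and 1.89 ± 0.12. Its 4-cell call was lost without either MERVL-KD library (adjusted p = 0.137 and 0.235) although the log2 fold change stayed at 2.94 and 3.07.

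Among the Cdk-inhibiting kinases, Wee1, which holds Cdk1 inactive, fell at the 2-cell stage from 38.3 and 43.3 to 21.7 and 20.4 CPM (-0.95 ± 0.13, adjusted p = 0.000155), and its oocyte relative Wee2 fell in 2-cell (-0.38 ± 0.08) and 4-cell embryos (-0.80 ± 0.21). The 2-cell fall of Wee2 did not pass with library size alone (adjusted p = 0.424) or with all 12 libraries in one fit (0.0608), and its 4-cell fall did not pass without control replicate 1 (0.11) or MERVL-KD replicate 1 (0.108). Both Wee1 and Cdc25c, which act in opposite ways on Cdk1, were lower in 2-cell MERVL-KD embryos. Anapc10, an APC/C subunit, fell at all 3 stages, from 27.3 and 23.0 to 8.45 and 10.9 at the 2-cell stage (-1.38 ± 0.18), from 104 and 111 to 24.7 and 19.5 at the 4-cell stage (-2.28 ± 0.14) and from 106 and 113 to 45.6 and 51.1 at the 8-cell stage (-1.18 ± 0.11). Bub3 of the spindle checkpoint fell at the 2-cell stage (-1.03 ± 0.17) and passed at neither later stage, Tfdp2, the partner of E2f factors, fell at the 4-cell (-1.66 ± 0.18) and 8-cell stages (-0.996 ± 0.165), and Ccny fell at the 4-cell stage (-1.03 ± 0.22, adjusted p = 0.013).

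**Figure D4:**
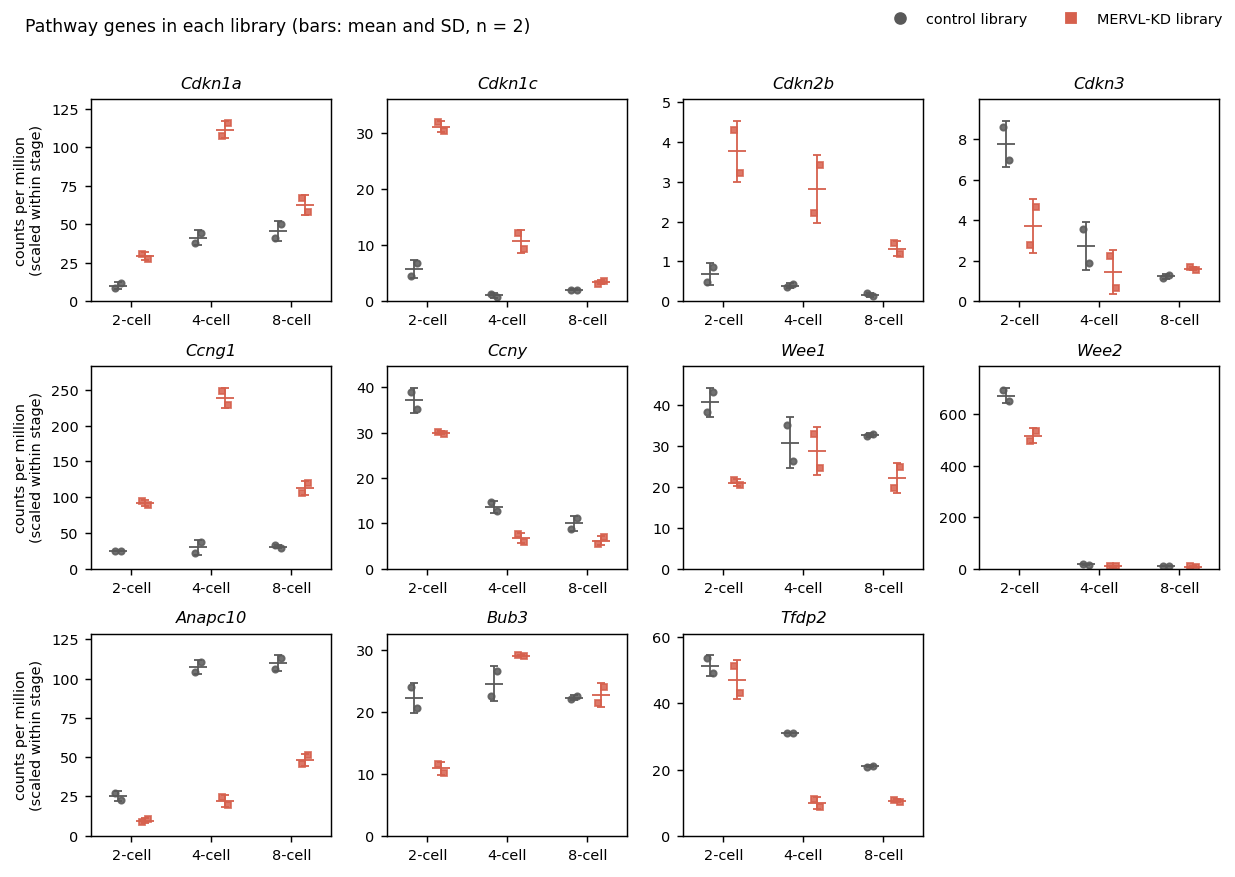
Levels in each library as CPM scaled within each stage (y axis, from 0) for 11 pathway genes that are not members, by cleavage stage (x axis). Circles are control and squares MERVL-KD libraries, with mean and SD (n = 2); Cdkn1a, Cdkn1c, Cdkn2b and Ccng1 lie above control at the 2-cell and 4-cell stages, and Anapc10 lies below control at every stage.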

How the data were processed

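Total RNA from control and MERVL-KD embryos was sequenced with a stranded SMART-Seq kit as paired ends. The deposited values are raw counts that the authors made with STAR 2.5.3a (unique alignments, GRCm38) and featureCounts over GENCODE genes and RepeatMasker families; 71.7 to 74.5% of gene counts from 1 to 50 were even. The members and gene lists were chosen with earlier results of these data known. Named genes were members called at any stage, the 5 with the smallest adjusted p per stage, a fixed core, the 5 largest control stage changes each way, members whose effect changed with stage, and called pathway genes with Wee1 and Wee2. MERVL-KD was compared with control in the 4 libraries of each stage by edgeR 4.0.16 (R 4.3.3; filterByExpr, TMM, robust quasi-likelihood, Benjamini-Hochberg over all rows); stage contrasts and changes of the effect came from one fit of 12 libraries. Fits were tested on simulated data. Replicates differed by a chi-square of 14.7 to 25.8 per degree of freedom; whether they came from separate collections is not given in the sources used here, so p-values measure the spread between these pools. Alternatives were DESeq2 1.42.0 (the study used DESeq2 1.16.1), other scalings and filters, a replicate block and leaving out each library. Chromatin accessibility samples were not analysed here.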

Additional observations from a re-analysis of the deposited data

Results flagged for a closer look

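With 2 libraries per group no test for a single stray library was possible. What was flagged is that the difference between MERVL-KD and control changed with stage by a direct test (edgeR interaction contrast, 12 libraries, adjusted p over all genes and repeats). From the 2-cell to the 4-cell stage 7 members passed, where 4.16% of all genes did. The effect rose for Ccne2 (1.38 on the log2 scale), Cdc25c (0.98), Cdc25b (0.79), Cdc42 (0.59), Cdc14b (0.58) and Ccna2 (0.58) and dropped for Cdk18 (-1.92). From the 4-cell to the 8-cell stage Ccne2 alone passed (-1.33), where 0.624% of all did. From the 2-cell to the 8-cell stage 8 members passed, where 4.03% of all did: the effect rose for Ccnd1 (1.60), Cdc14a (1.36), Cdc25c (1.17), Cdc73 (0.93), Cdc25b (0.77), Cdc14b (0.73) and Cdk12 (0.70) and dropped for Cdk18 (-2.05). The contrasts share the 2-cell libraries, so the first and last sets are not independent.

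The changes of Ccne2 and of Cdc25c passed under all 16 alternatives for both of their contrasts, and most of the others did not pass without one library or another. Adjusted p over 0.05 was reached by Ccna2 without 4-cell MERVL-KD replicate 2 (0.0886) and with library size alone (0.205). Cdk18 reached it from the 2-cell to the 4-cell stage without 2-cell control replicate 2 (0.129), 2-cell MERVL-KD replicate 1 (0.11) or 4-cell control replicate 2 (0.0875), and from the 2-cell to the 8-cell stage without the former pair (0.0917 and 0.0793). Cdc73 did so without 8-cell control replicate 2 (0.052), Cdk12 without 8-cell control replicate 1 (0.0604) or with library size alone (0.0906), Ccnd1 without 8-cell control replicate 2 (0.0532) or MERVL-KD replicate 1 (0.0506), and Cdc14b, from the 2-cell to the 8-cell stage, with library size alone (0.056). Cdc14a did so without 2-cell control replicate 2 (0.0699), 2-cell MERVL-KD replicate 1 (0.0975), 8-cell control replicate 1 (0.135) or 8-cell MERVL-KD replicate 2 (0.0755), or with library size alone (0.0551). Cdc25b, and Cdc14b and Cdc42 from the 2-cell to the 4-cell stage, each did not pass without any one of 5 or more of the 8 libraries, with adjusted p of up to 0.16 and, from the 2-cell to the 8-cell stage, 0.31 for Cdc25b, 0.173 for Cdc14b and 0.285 for Cdc42. With library size alone Cdc25b was at 0.221 and 0.192 and Cdc14b at 0.306, and with the 10-count minimum Cdc25b was at 0.0581 from the 2-cell to the 8-cell stage. Cdc42 passed under 4 of 16 alternatives, and not with the replicate block (0.0533), the non-robust fit (0.0585), no filter (0.059), the 10-count minimum (0.0677) or library size alone (0.356).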

How the results depend on the processing

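The members called at 2-fold were counted again under each alternative. For MERVL-KD against control at the 2-cell stage the count of 2 became 1 with DESeq2, with library size alone and with a 10-count minimum in every library, and 10 by adjusted p alone. It was 1 to 2 when a library was left out, and 1 without control replicate 1, control replicate 2 or MERVL-KD replicate 1, the call lost being Cdk18. At the 4-cell stage the 2 became 9 by adjusted p alone and stayed at 2 to 2 without any library. At the 8-cell stage the 1 became 2 with library size alone and 6 by adjusted p alone, and was 1 to 2 when a library was left out (2 without MERVL-KD replicate 2; without control replicate 1 the 1 was Ccnd1, and Cdc14a was at an adjusted p of 0.0941). In control embryos from the 2-cell to the 4-cell stage the 23 became 37 by adjusted p alone (21 to 23 without a library), and from the 4-cell to the 8-cell stage the 0 became 1 with DESeq2, library size alone or the 10-count minimum and 9 by adjusted p alone (0 to 0 without a library). In MERVL-KD embryos the 23 became 39 by adjusted p alone (21 to 22 without a library), and the 0 became 1 with library size alone and 2 by adjusted p alone (0 to 1 without a library). For changes of the effect, the 2 from the 2-cell to the 4-cell stage became 1 with the 10-count minimum and 7 by adjusted p alone (1 to 3 without a library). The 1 from the 4-cell to the 8-cell stage became 2 with DESeq2, without a filter, with the 10-count minimum and with halved counts, the second being Ccnd2 (1 to 1 without a library). The 4 from the 2-cell to the 8-cell stage became 2 with library size alone and 8 by adjusted p alone (2 to 5 without a library). The cause of these moves was not tested. Over single genes, members and pathway genes together, 1787 of 1974 alternative values kept their direction and their side of the threshold, 186 no longer passed, and 1 turned, Ccna2 at the 2-cell stage with library size alone (0.0036).

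Libraries with the same number did not deviate together (correlations over 24850 genes and repeats of -0.0106, -0.00236 and 0.00771 between control and MERVL-KD at the 2-cell, 4-cell and 8-cell stages). With the replicate block 2, 2 and 1 members were called and 10, 7 and 10 passed, and Ccne1 (adjusted p = 0.0564) and Cdc34 (0.0736) no longer passed at the 4-cell stage, nor did Cdc42's change of effect from the 2-cell to the 4-cell stage (0.0533) or the control changes of Ccnd3 and Cdc25c from the 4-cell to the 8-cell stage. When a library is left out, the lone library of its group is assumed to vary like the others.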
